A study of Mus musculus with 6 samples.

Results

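The Fox, Sox, Gata and Klf genes encode transcription factors that specify cell lineages, and 65 of them were followed in oocytes with a truncated basonuclin 1. They were taken by symbol from the 17577 genes listed in every library, and comprised 30 Fox, 16 Sox, 4 Gata and 15 Klf genes. The symbol rule used no measured value, but 17574 of the 17577 listed genes were above 0 in some library. Genes of these families that were not listed, such as Gata2, are not among the 65. The libraries were made from germinal vesicle (GV) oocytes, which are fully grown and arrested before the first meiotic division, of C57BL/6 J mice at 12 weeks of age. The 3 Bnc1tr/tr libraries came from mice homozygous for a frameshift allele that truncates BNC1, a zinc finger factor of germ cells, and the 3 wild-type (WT) libraries from Bnc1+/+ mice, with no other allele or agent named in the labels. The methods of the study describe superovulated females and cDNA made by Smart-seq2 from 1 oocyte, and the allele is carried by every cell of the animal.

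Forkhead (Fox) proteins bind DNA through a winged helix, Sox proteins bend it through a high-mobility-group box, and Gata and Klf proteins bind through zinc fingers, the latter at GC-rich boxes and CACCC boxes. Several act together in cell identity, as Sox2 and Klf4 do in pluripotent cells and Gata4 and Foxl2 in granulosa cells. A fully grown oocyte is transcriptionally quiet, so that its RNA is largely stored. The question asked of these genes was which were silent in oocytes, which were expressed, and which were gained or lost in the mutant.

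Levels are in FPKM, the fragments of a gene divided by the length of its transcript in kilobases and by the mapped fragments in M (mega), which relate each gene to all fragments of its library. Estimated depth was 13.2 to 17.2 M fragments in the Bnc1tr/tr libraries and 15.1 to 21.5 M in WT, at which 3 fragments on a transcript of 1 kb are worth 0.140 to 0.227 FPKM. Oocyte markers were present throughout, with a summed level of 15050 to 16377 FPKM in Bnc1tr/tr and 16845 to 18618 FPKM in WT, although Sohlh1 was at or near 0. Of 11 tested oocyte markers 1, Zp2, was lower in Bnc1tr/tr (log2 fold change -0.74, limma adjusted p = 0.032). The other 10 did not pass the thresholds given below. Bnc1 itself was listed at 9.04, 6.51 and 5.83 FPKM in Bnc1tr/tr and 13.2, 12.5 and 16.2 FPKM in WT, a log2 fold change of -0.89 ± 0.20 (SE; limma adjusted p = 0.0090). Fold changes throughout are Bnc1tr/tr minus WT on the log2(FPKM + 1) scale, and the p-values measure only the spread between these 6 libraries.

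WT oocytes held few of these factors at a high level. A gene was classed as expressed at 1 FPKM or more in all 3 WT libraries, as silent under 0.3 FPKM in all 6 libraries, and as gained when it was under 0.3 FPKM in every WT library and at 1 FPKM or more in every Bnc1tr/tr library. By these limits 15 members were expressed (23.1%, against 50.9% of all listed genes) and 24 were silent (36.9%, against 17.1%). The gained class held 1 member, Foxn4, and 1.27% of all listed genes (223 genes), and the lost class, its reverse, held 0 members and 4 of all listed genes. The remaining 25 members were low or mixed. The 5 most abundant members of a library, Klf17, Foxj3, Foxn2, Sox15 and Klf7 in WT replicate 1, held 75.4 to 79.4% of the summed FPKM of all 65 members in WT and 71.2 to 72.4% in Bnc1tr/tr.

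**Figure D1:**
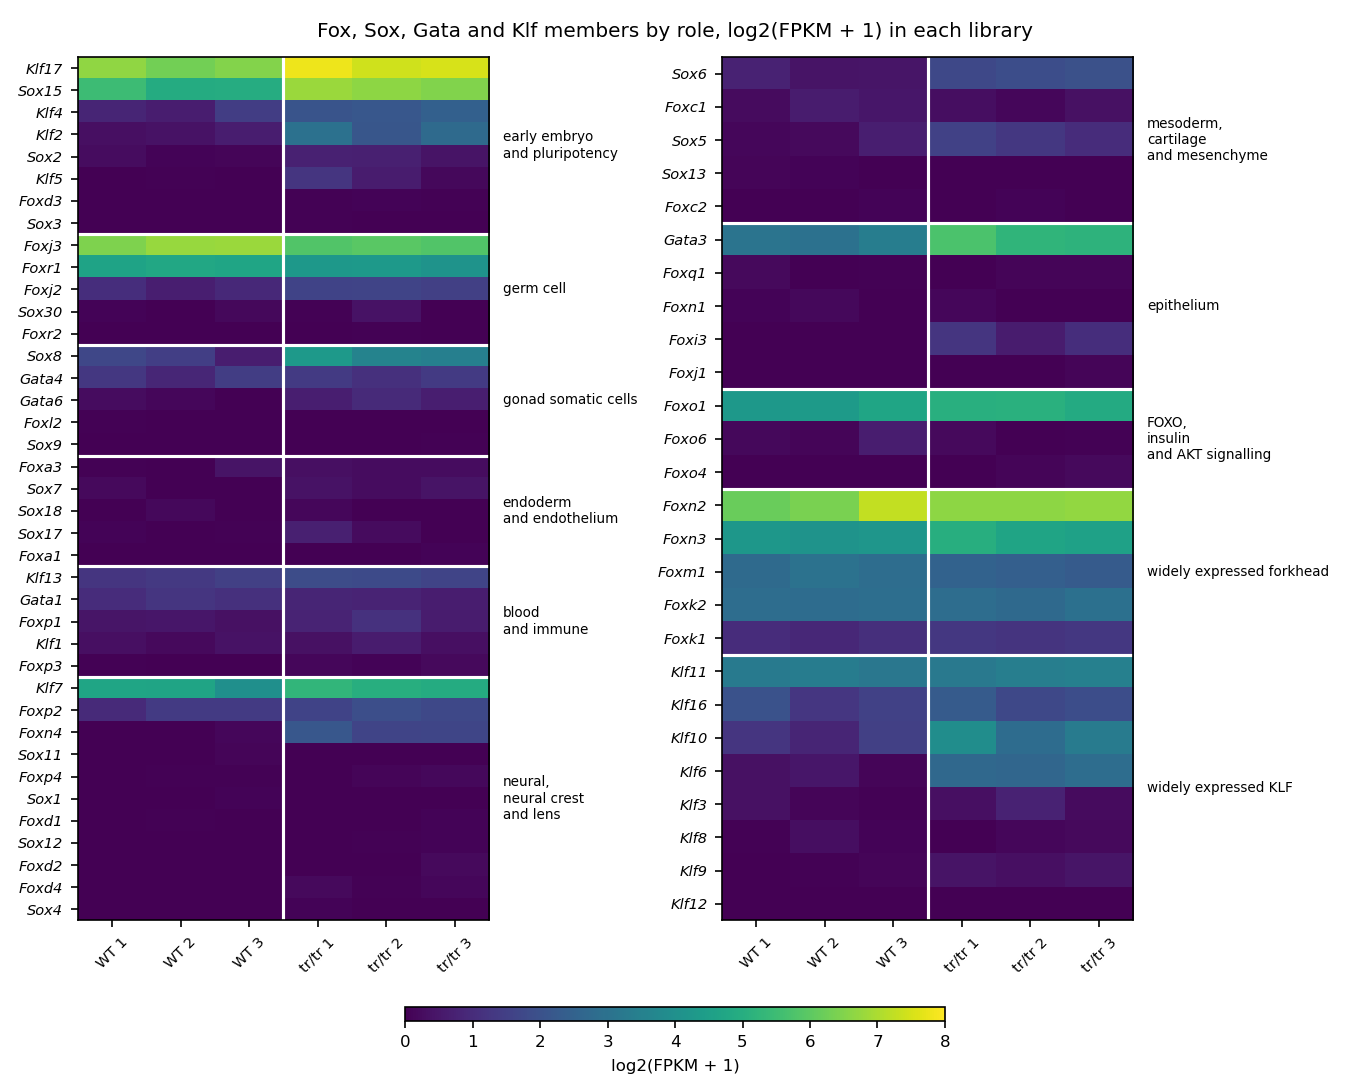
Level of each of the 65 members, as log2(FPKM + 1) on the colour scale, in the 3 WT and the 3 Bnc1tr/tr (tr/tr) libraries, with genes grouped by known role. Bright rows are few: Klf17, Sox15, Foxj3 and Foxn2 stand far above the silent members, none of which exceeded 0.22 FPKM in any library.

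More of the factors were detected in the mutant. At 1 FPKM or more there were 28, 27 and 27 members in the Bnc1tr/tr libraries and 20, 17 and 20 in the WT libraries, without overlap. The same direction held for all listed genes, of which 60.8 to 62.8% reached 1 FPKM in Bnc1tr/tr and 54.2 to 55.5% in WT. The summed level of the members was 755, 649 and 641 FPKM in Bnc1tr/tr and 433, 427 and 515 FPKM in WT.

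**Figure D2:**
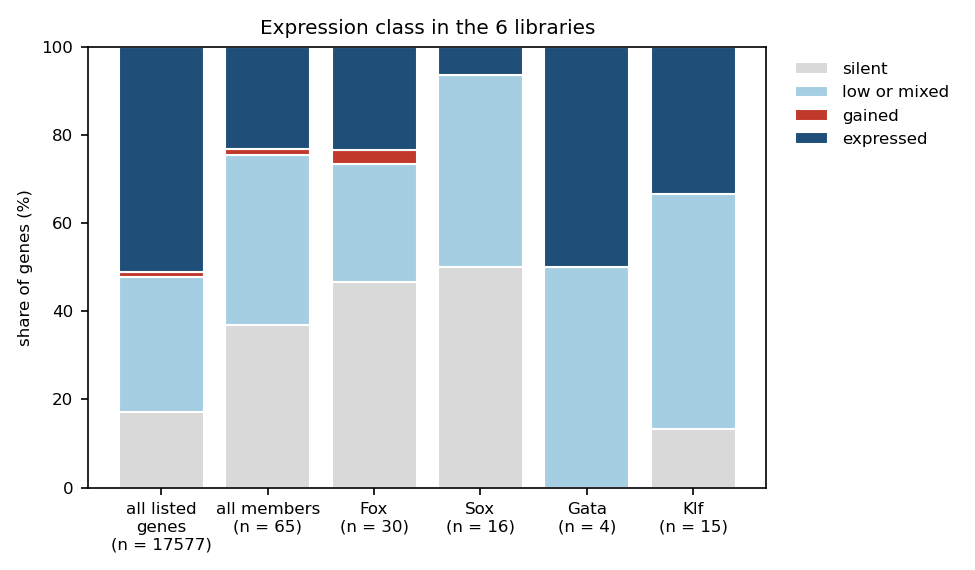
Share of genes in each expression class (silent, low or mixed, expressed, gained), in percent, for all 17577 listed genes (the 4 lost genes are not drawn), for all members and for each of the 4 families. Silent members made up 36.9% of the 65, against 17.1% of all listed genes.

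To find which factors changed, the members were read out of a limma comparison of the 10560 genes that averaged 1 FPKM or more across the libraries. A gene was called when its adjusted p was below 0.05 and its log2 fold change exceeded 0.5 in either direction. Of the 65 members, 25 entered that test and 40 were too low for it. Of the 25, 14 were called, against a background of 31.8% of all tested genes. Of these, 13 were higher in Bnc1tr/tr (background 24.1%) and 1, Foxj3, was lower (background 7.68%). The groups did not overlap in 20 of the 25, against 46.8% of all tested genes. The median log2 fold change was 0.58 over the 25 and 0.15 over all tested genes.

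The called genes were spread over the families. Higher were 4 of 11 tested Fox genes, 3 of 3 Sox genes, 1 of 2 Gata genes and 5 of 9 Klf genes. Foxn4, Klf6, Klf2, Sox6 and Foxj2 had a WT mean under 1 FPKM and passed the filter through their mutant level, so they had to differ to be tested. Among the 20 members with a WT mean of at least 1 FPKM, 8 were called higher and 1 lower. Of the 9600 tested genes at that WT level, 18.7% were called higher and 8.45% lower. Gata1, among the 20, had a mutant mean of 0.69 FPKM and missed the filter, so it was not tested. Near 1 FPKM in WT the test thus still depended on the mutant level and left out genes that fell.

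The direction of the smaller changes rests on the scale of FPKM. Of all called genes 75.8% were higher with the deposited values, 50.1% with upper-quartile scaling, 55.5% with median-ratio scaling and 48.0% with quantile normalization, and the median over all tested genes moved from 0.15 to -0.10, -0.05 and -0.09 on the log2 scale. Of the 25 tested members, 11 were then called higher and 3 lower with upper-quartile or median-ratio scaling. With quantile normalization 10 were higher and 3 lower. Of all tested genes 34.4, 32.9 and 33.0% were called in either direction under the 3 scalings. These were 1812 higher and 1804 lower of 10518, 1925 and 1543 of 10530, and 1670 and 1811 of 10560. Foxn3 and Foxo1 lost their calls under all 3 scalings and Foxj2 under quantile normalization, whereas Foxm1 and Foxr1 became called lower under all 3.

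**Figure D3:**
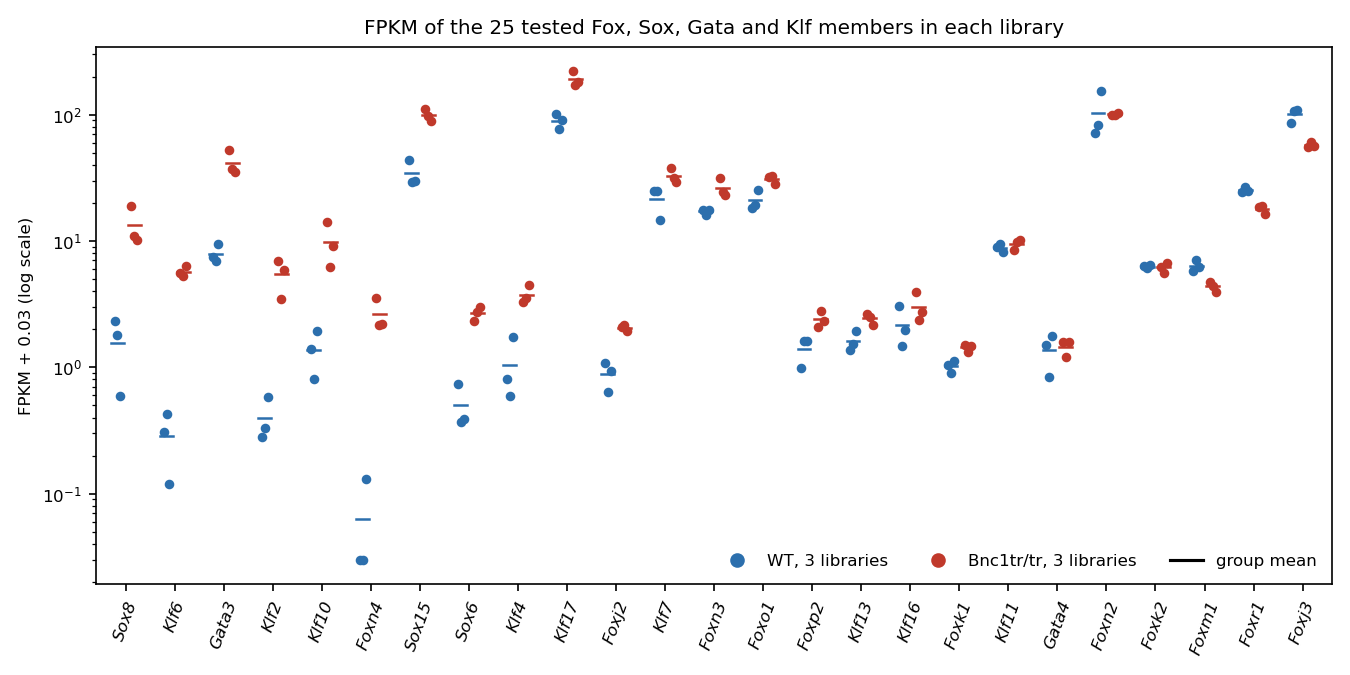
FPKM plus an offset of 0.03 (so that 0 can be drawn), on a log axis, of the 25 tested members in each of the 3 WT and 3 Bnc1tr/tr libraries, with 1 point per library and a line at the group mean. Sox8, Klf6, Gata3, Klf2, Klf10 and Foxn4 show the widest gaps between the groups, and Foxj3 is the called gene with its WT points above.

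Promoter sequence was examined because most called members moved in the same direction. Of the 65 members 46 had a promoter entry in RefSeq (GRCm38.p6), and 42 had a single listed start. The GC box GGGCGG, which SP and KLF proteins bind, was present on either strand in the 250 bases before the start of 31 of the 42 (73.8%), against 50.2% of 11310 listed genes with a single start. The CACCC box CCACCC, read on both strands, was present in 17 (40.5%), against 31.5%. The SOX motif ACAATG was found in 2 members (4.76%, against 7.498%), the GATA motif GATAAG in 2 (4.76%, against 5.54%) and the forkhead motif GTAAACA in 3 (7.14%, against 2.36%), all on both strands. The median ratio of observed to expected CpG was 0.769 in the members' promoters and 0.644 in those of the listed genes, and it was 0.801 in silent members and 0.690 in members called higher. The median GC content was 65.2% in the members' promoters and 57.6% in those of the listed genes, and the motif shares were not adjusted for it. The 42 members include 15 silent ones and 11 called higher, so the shares do not describe the called members alone. Shown here are these 250 bases for 5 members with wide increases and for Foxj3, the called decrease, each on the strand of its gene, with GC boxes and CACCC boxes of either strand in capitals and adjoining boxes run together. They lie at chr17:25570687-25570936 (minus strand), chr13:5861239-5861488 (plus), chr2:9878601-9878850 (minus), chr8:72318812-72319061 (plus), chr5:114273762-114274011 (minus) and chr4:119539411-119539660 (plus). The windows of Gata3 and Foxn4 lie inside the RefSeq span of the gene, which reaches to 9887953 and 114274418. The listed start of these genes is thus not the outermost.
Sox8: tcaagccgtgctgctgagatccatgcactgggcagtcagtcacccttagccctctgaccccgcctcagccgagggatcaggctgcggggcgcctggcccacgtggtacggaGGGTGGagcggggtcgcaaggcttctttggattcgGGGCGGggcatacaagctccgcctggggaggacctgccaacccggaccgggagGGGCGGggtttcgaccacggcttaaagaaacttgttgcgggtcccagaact
Klf6: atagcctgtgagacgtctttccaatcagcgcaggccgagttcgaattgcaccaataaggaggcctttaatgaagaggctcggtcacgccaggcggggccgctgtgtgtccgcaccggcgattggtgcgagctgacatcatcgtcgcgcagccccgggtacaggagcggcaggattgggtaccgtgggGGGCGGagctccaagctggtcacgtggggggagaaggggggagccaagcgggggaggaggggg
Gata3: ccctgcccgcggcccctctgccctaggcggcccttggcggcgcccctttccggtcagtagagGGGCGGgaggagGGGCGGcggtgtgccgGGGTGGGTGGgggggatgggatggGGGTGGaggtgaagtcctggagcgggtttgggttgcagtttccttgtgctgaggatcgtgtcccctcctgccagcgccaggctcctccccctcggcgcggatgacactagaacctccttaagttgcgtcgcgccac
Klf2: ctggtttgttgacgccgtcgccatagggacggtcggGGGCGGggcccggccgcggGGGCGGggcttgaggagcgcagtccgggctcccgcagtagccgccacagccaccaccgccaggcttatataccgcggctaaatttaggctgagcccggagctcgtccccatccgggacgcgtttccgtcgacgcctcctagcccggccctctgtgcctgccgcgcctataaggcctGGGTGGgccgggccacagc
Foxn4: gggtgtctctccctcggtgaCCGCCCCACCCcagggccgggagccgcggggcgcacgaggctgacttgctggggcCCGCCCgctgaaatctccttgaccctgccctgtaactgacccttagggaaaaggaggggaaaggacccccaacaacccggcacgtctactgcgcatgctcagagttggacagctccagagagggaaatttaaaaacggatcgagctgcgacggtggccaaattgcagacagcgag
Foxj3: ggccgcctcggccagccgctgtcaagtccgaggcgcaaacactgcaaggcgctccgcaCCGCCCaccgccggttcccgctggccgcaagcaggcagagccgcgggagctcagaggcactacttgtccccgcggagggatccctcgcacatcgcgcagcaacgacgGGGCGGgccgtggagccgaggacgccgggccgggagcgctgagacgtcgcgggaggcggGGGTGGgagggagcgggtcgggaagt
Each of the 6 windows holds a GC box, and all but that of Klf6 also hold a CACCC box, including that of Foxj3, which moved the other way.

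Among factors of the early embryo and of pluripotent cells, Klf17, Sox15, Klf4 and Klf2 rose. Of 8 such members 4 were tested, of which Klf2 only through its mutant level. The other 3 had a WT mean of at least 1 FPKM, and all 3 were called higher, where 18.7% of all tested genes at that WT level were. The role lists were chosen with earlier results of these data known, so this comparison is not an independent test. Klf4, among the 3, reached that mean through WT replicate 3 and was under 1 FPKM in WT replicates 1 and 2. Klf17, a zinc finger factor found in germ cells and early embryos, was the most abundant member in the mutant. It had 219, 172 and 181 FPKM in Bnc1tr/tr and 100.4, 77.5 and 91.1 FPKM in WT, so that each mutant library lay above each WT library. The means of 191.0 ± 25.1 and 89.6 ± 11.5 (SD, n = 3 each) gave a log2 fold change of 1.08 ± 0.18 (SE; limma adjusted p = 0.0020). Other genes share 10.8% of the 31-base words of its transcripts, so some of its fragments may belong elsewhere.

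Sox15, a relative of Sox2 expressed in embryonic stem cells and trophoblast, was listed at 111, 97.9 and 88.6 FPKM in Bnc1tr/tr against 43.4, 29.3 and 29.8 FPKM in WT. The groups were far apart, and the log2 fold change was 1.53 ± 0.20 (SE; limma adjusted p = 0.00055). Its exons overlap Mpdu1 on the opposite strand, which was listed at 0 to 0.42 FPKM in the 6 libraries. Klf4, a reprogramming factor, had 3.23, 3.50 and 4.44 FPKM in Bnc1tr/tr and 0.78, 0.56 and 1.72 FPKM in WT. It rose by 1.26 ± 0.23 on the log2 scale (SE; limma adjusted p = 0.0034). Klf2, which acts beside Klf4 in embryonic stem cells and in endothelium under flow, was at 6.93, 3.41 and 5.84 FPKM in Bnc1tr/tr and at 0.25, 0.30 and 0.55 FPKM in WT. This was a log2 fold change of 2.19 ± 0.23 (SE; limma adjusted p = 0.00017), and a 14.7-fold ratio of the group means.

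The other members of that role were too low for the test. Sox2, a core pluripotency factor, was listed at 0.67, 0.63 and 0.33 FPKM in Bnc1tr/tr and 0.21, 0.05 and 0.08 FPKM in WT. Klf5, a factor of trophectoderm and gut epithelium, was at 1.35, 0.51 and 0.12 FPKM against 0, 0.04 and 0 FPKM. Both lay without overlap between the groups, and neither was called when the filter on low values was left out. Foxd3, a factor of pluripotent cells and neural crest, and Sox3, a neural progenitor factor, were silent.

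Germ cell factors held the called decrease. Foxj3, a forkhead factor known from spermatogenesis, was among the most abundant members of WT oocytes. It had 86.4, 107 and 109 FPKM in WT and 55.8, 60.6 and 56.3 FPKM in Bnc1tr/tr, with every mutant library below every WT library. Its means of 100.9 ± 12.6 and 57.6 ± 2.65 (SD, n = 3 each) differed by -0.79 ± 0.17 on the log2 scale (SE; limma adjusted p = 0.0068), a WT to mutant ratio of 1.75. Its relative Foxj2 moved the other way at a far lower level, with 2.06, 2.12 and 1.89 FPKM in Bnc1tr/tr and 1.06, 0.61 and 0.90 FPKM in WT. Foxj2 rose by 0.71 ± 0.17 on the log2 scale (SE; limma adjusted p = 0.011), a call lost without WT replicate 2 (limma adjusted p = 0.061).

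Foxr1, a forkhead gene of the germ line, was listed at 24.1, 26.6 and 24.99 FPKM in WT and 18.4, 18.7 and 16.2 FPKM in Bnc1tr/tr. The groups did not overlap, and its log2 fold change of -0.48 ± 0.16 (SE; limma adjusted p = 0.042) missed the fold threshold. Foxr2, its paralog, was silent, and Sox30, a factor of spermatids, was low or mixed.

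Among factors of the somatic gonad, Sox8 rose while the determinants of granulosa and Sertoli cells were near 0. Sox8, which acts beside Sox9 in Sertoli cells, had 19.0, 10.97 and 10.1 FPKM in Bnc1tr/tr and 2.28, 1.77 and 0.56 FPKM in WT. Every mutant library exceeded every WT library, and the log2 fold change of 2.51 ± 0.32 (SE; limma adjusted p = 0.00045) was the largest among the tested members with a pseudocount of 1 FPKM. With a pseudocount of 0.1 FPKM, Foxn4 (4.39), Klf6 (4.12) and Klf2 (3.55) exceeded Sox8 (3.17). Other genes, an antisense gene included, share 9.73% of its 31-base words, and whether counting used strand was not stated. Foxl2, the determinant of granulosa cells, was listed at 0 in all 3 Bnc1tr/tr libraries and at 0.03, 0 and 0 FPKM in WT. Sox9, the determinant of Sertoli cells, was at 0, 0 and 0.03 FPKM in Bnc1tr/tr and at 0 in all 3 WT libraries. These levels correspond to few fragments.

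Gata4, a factor of granulosa and theca cells and of the heart, was at 1.56, 1.17 and 1.54 FPKM in Bnc1tr/tr against 1.47, 0.80 and 1.74 FPKM in WT. Its groups overlapped, and the 95% interval of its log2 fold change ran from -0.38 to 0.52. Gata6, a partner of Gata4 and a factor of primitive endoderm, was listed at 0.58, 0.95 and 0.58 FPKM against 0.20, 0.11 and 0 FPKM, under the filter of the test.

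The gained factor belonged to the neural group. Foxn4, which specifies amacrine cells of the retina and interneurons of the spinal cord, was at 0, 0 and 0.10 FPKM in WT and at 3.51, 2.13 and 2.17 FPKM in Bnc1tr/tr. At its length 3 fragments are worth at most 0.0809 FPKM, and its values correspond to an estimated 101 to 130 fragments in the mutant libraries and 0 to 6.03 in WT. The log2 fold change was 1.78 ± 0.19 (SE; limma adjusted p = 0.00017). Without Bnc1tr/tr replicate 1 its mean fell under the filter of the test, and by level it was still gained.

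The other neural factors were mostly silent. Of 11 members with that role, 8 were silent, among them Sox1, Sox4, Sox11 and Sox12, and 3 were tested. Klf7, a factor of growing neurons, was at 37.8, 31.2 and 29.0 FPKM in Bnc1tr/tr and 24.9, 24.7 and 14.7 FPKM in WT. The groups did not overlap and the difference of 0.61 ± 0.23 on the log2 scale was not called (SE; limma adjusted p = 0.073). Other genes, an antisense gene included, share 38.7% of the 31-base words of Klf7, so its level is uncertain. Foxp2, known from circuits of speech and vocal learning, averaged 2.38 ± 0.345 FPKM in Bnc1tr/tr and 1.37 ± 0.364 FPKM in WT (SD, n = 3 each) and was not called (limma adjusted p = 0.058).

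Of the factors of epithelium, mesoderm, endoderm, endothelium and blood, Gata3 and Sox6 rose. Gata3, a factor of trophectoderm, mammary epithelium and T cells, was at 52.5, 36.8 and 35.3 FPKM in Bnc1tr/tr and 7.39, 6.95 and 9.39 FPKM in WT. The means of 41.5 ± 9.52 and 7.91 ± 1.30 (SD, n = 3 each) differed by 2.24 ± 0.21 on the log2 scale (SE; limma adjusted p = 6.9e-05), the widest change among members of the expressed class. Sox6, a factor of cartilage and of erythroid cells, was at 2.30, 2.73 and 2.98 FPKM in Bnc1tr/tr and 0.71, 0.34 and 0.36 FPKM in WT. It rose by 1.32 ± 0.17 on the log2 scale (SE; limma adjusted p = 0.00056). Its partner in cartilage, Sox5, was too low for the test, at 1.93, 1.45 and 1.01 FPKM against 0.11, 0.16 and 0.58 FPKM.

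Foxi3, a factor of the ectodermal placodes, was listed at 0 in all 3 WT libraries and at 1.37, 0.54 and 1.06 FPKM in Bnc1tr/tr. Against a floor of 3 fragments per library its mutant mean was at least 5.64-fold higher, and 1 mutant library kept it out of the gained class. With no filter on low values, Foxi3, Sox5 and Gata6 were called higher as well (limma adjusted p = 0.012, 0.024 and 0.020). Gata1, the erythroid factor that Sertoli cells also make, was expressed in WT at 1.0, 1.36 and 1.14 FPKM and had 0.78, 0.72 and 0.57 FPKM in Bnc1tr/tr. Its overall mean was just under the filter, and with no filter it was not called (limma adjusted p = 0.053). Klf13, a factor of T cells, averaged 2.40 ± 0.240 FPKM in Bnc1tr/tr against 1.57 ± 0.284 FPKM in WT (SD, n = 3 each) and was not called (limma adjusted p = 0.092). Of the 5 endoderm and endothelium members, which include Foxa1 and Sox17, 0 were tested and 2 were silent.

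FOXO and widely expressed forkhead factors moved less. Foxo1, which insulin and AKT signalling keep out of the nucleus, was at 31.8, 32.8 and 28.4 FPKM in Bnc1tr/tr and 18.2, 19.3 and 25.1 FPKM in WT. It rose by 0.56 ± 0.18 on the log2 scale (SE; limma adjusted p = 0.041), a call lost on leaving out any library but WT replicate 3 (limma adjusted p = 0.067 to 0.14). An antisense gene overlaps its exons, and other genes share 8.0% of its 31-base words. Foxn3, a repressor linked to cell cycle checkpoints, averaged 26.3 ± 4.40 FPKM in Bnc1tr/tr and 17.1 ± 0.873 FPKM in WT (SD, n = 3 each). Its log2 fold change of 0.58 ± 0.17 (SE; limma adjusted p = 0.032) lost its call without Bnc1tr/tr replicate 1 or 2 or WT replicate 1 or 2 (limma adjusted p = 0.062 to 0.12). Both genes kept a higher mean in the mutant in each of these fits.

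Foxn2, the closest relative of Foxn3, had 98.3, 99.5 and 103 FPKM in Bnc1tr/tr and 71.6, 83.0 and 154 FPKM in WT, where WT replicate 3 stood above the rest. The 95% interval of its log2 fold change ran from -0.56 to 0.65, and without WT replicate 3 the difference was 0.37 on the log2 scale. Foxm1, which drives mitotic genes, was at 4.68, 4.40 and 3.94 FPKM in Bnc1tr/tr and 5.77, 7.0 and 6.22 FPKM in WT. The groups did not overlap, and the log2 fold change of -0.46 ± 0.16 was not called (SE; limma adjusted p = 0.058). Foxk2, a factor of metabolic genes, had a log2 fold change of -0.02 with a 95% interval from -0.37 to 0.33, and its relative Foxk1 had 0.27 (limma adjusted p = 0.21).

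Widely expressed KLF factors included Klf6 and Klf10, both known as rapid-response genes, which rose. Klf6, a gene induced by injury and serum, was at 5.50, 5.22 and 6.26 FPKM in Bnc1tr/tr and at 0.28, 0.40 and 0.09 FPKM in WT. Its log2 fold change of 2.41 ± 0.17 (SE; limma adjusted p = 1.8e-05) had the smallest p among the members, with a 22.1-fold ratio of the group means. Klf10, induced by TGF-beta, was at 14.1, 6.15 and 9.15 FPKM in Bnc1tr/tr and 1.36, 0.77 and 1.89 FPKM in WT. It rose by 2.17 ± 0.29 on the log2 scale (SE; limma adjusted p = 0.00062).

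Klf11, the closest relative of Klf10 and likewise induced by TGF-beta, had overlapping groups. Its levels were 8.45, 9.78 and 10.1 FPKM in Bnc1tr/tr and 8.93, 9.35 and 8.10 FPKM in WT, and the 95% interval of its log2 fold change ran from -0.27 to 0.45. Klf16 averaged 2.99 ± 0.842 FPKM in Bnc1tr/tr and 2.13 ± 0.811 FPKM in WT (SD, n = 3 each), also with overlap. Klf9, a target of nuclear hormone receptors, was too low for the test at 0.35, 0.25 and 0.38 FPKM against 0.02, 0.04 and 0.08 FPKM.

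**Figure D4:**
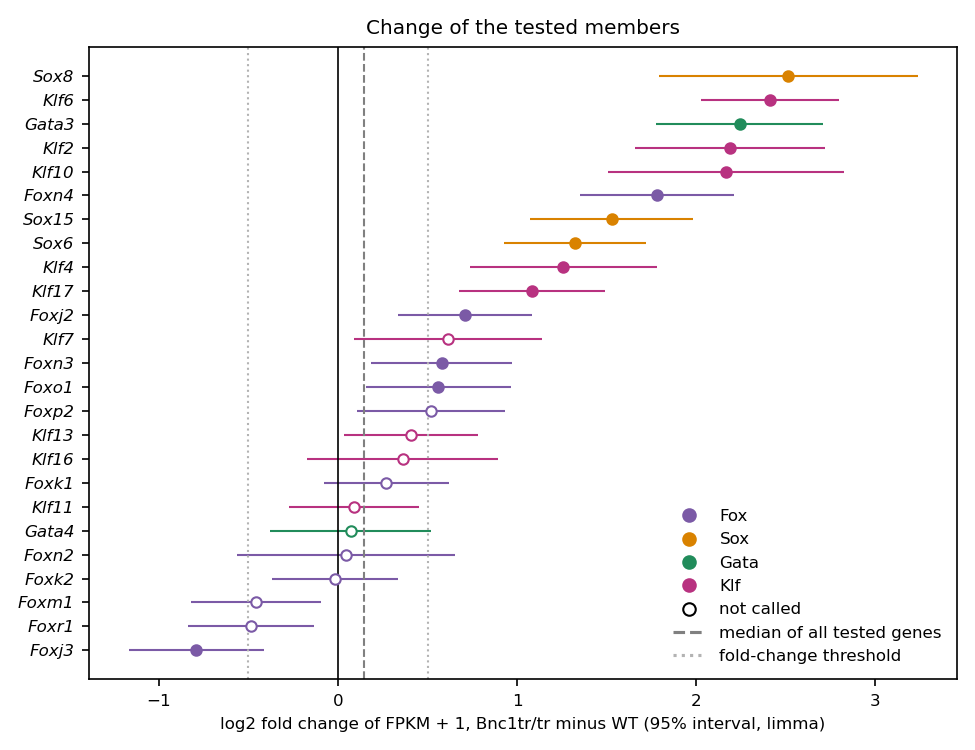
Log2 fold change of FPKM + 1, Bnc1tr/tr minus WT, of the 25 tested members, with 95% intervals and with called genes filled. Foxj3 at -0.79 is the called gene below 0, and the called genes above 0 run from Foxo1 at 0.56 to Sox8 at 2.51.

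The silent class held 14 Fox, 8 Sox and 2 Klf genes and 0 Gata genes. Of these 24, 10 were listed at 0 in all 3 WT libraries and 0 were at 0 in all 6. The highest value of a silent gene in any library was 0.22 FPKM, that of Klf8 in WT replicate 2, an estimated 15 fragments. Of the 24, 15 exceeded an estimated 3 fragments in at least 1 library, so the class marks a low level and not an absence of transcript. Of the 15 low or mixed members that were too low for the test, 8 lay without overlap between the groups (background 34.6% of all 3933 such genes), and these 8, Foxi3, Foxp1, Gata6, Klf5, Klf9, Sox2, Sox5 and Sox7, had higher values in Bnc1tr/tr (background 30.5%).

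Partners and relatives of the members were compared in the same fit, in which 24.1% of all tested genes were called higher. Of 8 listed SP factors, the closest relatives of the KLFs, 4 were tested and 2 rose, of which Sp9 entered the test only through its mutant level. Sp9, a factor of limb and forebrain, was at 4.48, 3.53 and 2.54 FPKM in Bnc1tr/tr and 0.05, 0 and 0 FPKM in WT (log2 fold change 2.13, limma adjusted p = 6.4e-05). Sp3, a widely expressed GC box factor, was at 7.99, 6.95 and 7.37 FPKM against 1.53, 1.99 and 3.36 FPKM (log2 fold change 1.39, limma adjusted p = 0.0015). Both lay without overlap between the groups.

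Of 5 tested GATA partners 2 rose (background 24.1%). They were Gatad2b, a subunit of the NuRD complex, by 0.84 and Trps1, an atypical GATA repressor, by 0.64 on the log2 scale (limma adjusted p = 0.0054 and 0.014). Of 8 tested POU and other SOX partners 4 rose (background 24.1%). These were the Wnt effectors Tcf7l2 and Lef1, with log2 fold changes of 1.66 and 0.87 (limma adjusted p = 0.00027 and 0.0095), the octamer factor Pou2f1 with 0.84 (limma adjusted p = 0.010), and the pluripotency factor Nanog with 0.79 (limma adjusted p = 0.048), which was tested only through its mutant level. Pou5f1, the partner of Sox2 in pluripotent cells, had 11.9, 8.12 and 8.03 FPKM in Bnc1tr/tr and 12.9, 9.31 and 7.69 FPKM in WT, with overlap between the groups. Of 16 tested regulators of FOXO factors, such as Akt1, and of 10 tested cofactors of KLF factors, 0 were called by limma. The KLF list held corepressors such as Sin3a, and also the acetyltransferases Crebbp and Ep300 and the ubiquitin ligase Wwp1. The median log2 fold change was 0.98 for SP factors, 0.13 for GATA partners and 0.59 for SOX partners. It was 0.18 for FOXO regulators and -0.03 for KLF cofactors, beside 0.15 for all tested genes. Over the genes with a WT mean of at least 1 FPKM the medians were 0.56 for SP factors (3 genes, 1 higher) and 0.39 for SOX partners (7 genes, 3 higher). Of all tested genes at that WT level 18.7% were called higher.

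**Figure D5:**
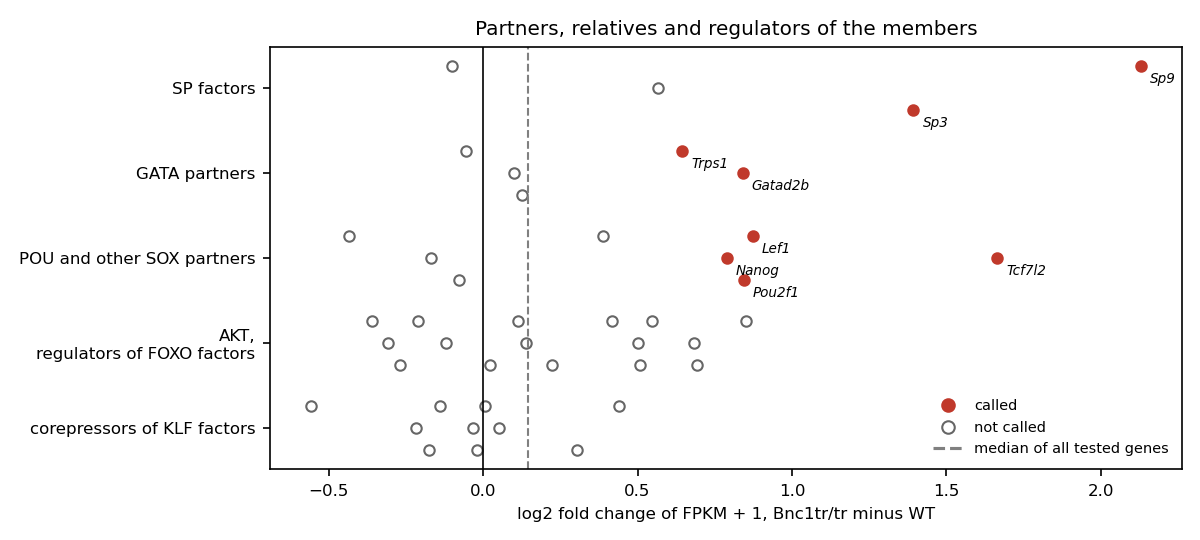
Log2 fold change of FPKM + 1, Bnc1tr/tr minus WT, of the tested genes of 5 lists of partners, relatives and regulators, 1 point per gene, with called genes filled and the median of all tested genes (0.15) dashed. The 8 called genes all lie above 0, in the SP, GATA and SOX lists, where 24.1% of all tested genes were called higher and 7.68% lower. The list drawn as corepressors of KLF factors also holds Crebbp, Ep300 and Wwp1, which are other cofactors.

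Transcripts known from other ovarian cells also differed between the groups. Surface epithelium markers summed to 9.72 to 35.0 FPKM in Bnc1tr/tr and 0.86 to 1.71 FPKM in WT, and the keratins Krt8 and Krt18 and Upk3b were called higher. All 3 entered the test only through their mutant level, so they had to differ. Granulosa cell markers summed to 43.4 to 60.6 FPKM and 22.8 to 40.1 FPKM, and most of the sum was Cyp19a1, which was not called (limma adjusted p = 0.10). Of the 5 tested, the FSH receptor Fshr, tested only through its mutant level, and the KIT ligand Kitl were higher. Inha, an inhibin subunit, was at 0.18, 1.81 and 0.09 FPKM in Bnc1tr/tr and 6.78, 3.45 and 0.04 FPKM in WT and was not called, while Foxl2, Amhr2, Wt1 and Lhx9 were at or near 0. Stroma markers summed to 5.87 to 9.69 FPKM and 1.40 to 2.09 FPKM, with Dcn, the 1 tested gene, higher and Col1a1 and Acta2 at or near 0. Pdgfra, too low for the test, was at 0.63, 0.50 and 0.38 FPKM against 0.04, 0.07 and 0.07 FPKM. Lum, also too low, was at 0.53, 2.23 and 0.41 FPKM in Bnc1tr/tr and at 0 in WT. Theca markers summed to 6.15 to 7.73 FPKM and 0.77 to 4.41 FPKM, with Cyp11a1, the 1 tested gene, higher, whereas Hsd3b1 was at 0.10, 0 and 0 FPKM in Bnc1tr/tr and 1.53, 1.0 and 0 FPKM in WT. The summed levels were thus higher in the mutant. Every measured surface epithelium and stroma marker had a higher mean there, while single granulosa and theca markers differed in direction. For Col1a1 and Acta2 this rested on 0.01 and 0.15 FPKM in 1 Bnc1tr/tr library each, so they carry no direction. Of the markers chosen, 5 of 7 for surface epithelium and 5 of 8 for stroma were measured. The part of these markers in the results on the members was not tested.

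Other lists moved less evenly. Endothelium markers summed to 12.0 to 13.4 FPKM in Bnc1tr/tr and 11.3 to 13.01 FPKM in WT, with Flt1 higher, Pecam1 lower and Cdh5 at or near 0. Of 2 tested endoderm markers 1, Afp, rose, and of 3 tested neural markers 2, Elavl3 and, through its mutant level, Map2, rose (background 24.1%). Blood and immune markers summed to 1.99 to 60.7 FPKM in Bnc1tr/tr and 1.39 to 3.0 FPKM in WT, and 0 of 3 tested were called by limma. The macrophage gene Lyz2 was listed at 5.81, 48.0 and 0 FPKM in Bnc1tr/tr and at 0 in WT. With Bnc1tr/tr replicate 3, in which Lyz2 was at 0, alone against the 3 WT libraries, 6 members were called, all higher, against a background of 8.5% of all tested genes, where the lone library is assumed to vary as the WT libraries do. The calls of Foxj2, Foxj3, Foxn3, Foxo1, Klf17, Klf4 and Sox15 were lost in that fit. Foxn4 fell under its filter and was not tested there, and by level it was still gained. That fit tested 25 members, and its choice of libraries was made after the data were seen. Of the 6 called, Klf2, Klf6 and Sox6 had a WT mean under 1 FPKM, so they had to differ to be tested. The background of 8.5% was not matched for WT level. The part of blood or immune RNA in the results was not tested. Whether an oocyte held more RNA of a factor, or less RNA of other genes, cannot be told apart from FPKM.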

How the data were processed

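Single GV oocytes of Bnc1tr/tr and WT mice were profiled by Smart-seq2, in 3 libraries a group. The paper names 3 biological replicates per group, and the labels do not name the mouse of each library. The authors deposited 1 gene table per library in FPKM, rounded to 2 decimals. The submitters' processing notes name HISAT2 2.0.4, Bowtie2 2.2.5, RSEM 1.2.12 and the build GRCm38.p6. Whether counting used strand is not given in the sources used here. FPKM moves with all other transcripts of a library. The cDNA was amplified and carried no molecular identifiers, so floors cover counting error only.

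Of 66 genes that matched the symbol pattern, 1 is not reported here. Groups followed the genotype label. The test was limma 3.58.1 (R 4.3.3), run on log2(FPKM + 1), which understates changes of low genes, for genes averaging 1 FPKM or more, with Benjamini-Hochberg adjustment over all 10560 tested genes, and the thresholds 0.05 (adjusted p) and 0.5 (log2). The fit was tested on simulated data. Depth was estimated from the spacing of low values and entered no test. Gene positions and promoters came from RefSeq (GRCm38.p6), and 31-base words shared between transcripts from GENCODE M21. Figures were drawn with matplotlib 3.10.9.

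The members, role lists, partner lists and marker lists were chosen with earlier results of these data known. Named were all called, expressed or gained members, those with a group mean of at least 5 FPKM, silent members of the gonad, embryo and germ cell roles, and called partners. Other named genes (low members, neural and blood factors, markers) were chosen after their values were seen. Alternatives were a pseudocount of 0.1, other filters, 3 scalings, other class limits, a replicate block, trend and robust variances, and leaving out each library. Leaving out both Bnc1tr/tr libraries with Lyz2 above 0 was added after seeing the data.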

Additional observations from a re-analysis of the deposited data

How the results depend on the processing

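Calls of single genes rest on 3 libraries a group and on FPKM as the scale. With a mean of at least 5 FPKM, fewer genes were tested and 2046 were called, 1413 of them higher, with 8 members called (7 higher) and 4 partner genes. Lower calls numbered 1804 with upper-quartile scaling, 1543 with median-ratio scaling and 1811 with quantile normalization, against 811, with 3 members lower under each, and quantile normalization gave 1670 higher calls. Leaving out 1 library gave 2390 to 3597 calls, 1867 to 2560 higher and 416 to 1037 lower, with 11 to 15 members called, 10 to 14 of them higher and 1 lower, and 6 to 11 partner genes. Lower calls moved by over 1.5 times without Bnc1tr/tr replicate 1 (523), Bnc1tr/tr replicate 3 (535) and WT replicate 2 (416). Without both Bnc1tr/tr replicates 1 and 2, 863 genes were called (720 higher, 143 lower), 6 members (6 higher, 0 lower) and 1 partner gene, and Bnc1 had a log2 fold change of -1.13 (limma adjusted p = 0.059), against -1.06 to -0.78 on leaving out 1 library. The silent class held 15 members with a limit of 0.1 FPKM, and 24 to 26 on leaving out 1 library, when the expressed class held 15 to 18. The gained class held 0 with 0.1 FPKM, 2 with 0.5 FPKM (Foxn4 and Klf6), and 1 to 2 on leaving out 1 library, with Foxi3 added without Bnc1tr/tr replicate 2, Klf6 without WT replicate 2 and Sox5 without WT replicate 3, and 2 without both. Directions turned for genes that were not called: Foxk2 to 0.091 without both, and between -0.072 and 0.041 on leaving out 1 library, Foxn2 to -0.23 (upper-quartile) and -0.17 (median-ratio), and between -0.17 and 0.37 on leaving out 1 library, Klf11 to -0.16, -0.11 and -0.21 under the 3 scalings, and Klf13 to -0.042 and Klf16 to -0.071 under quantile normalization. The cause was not tested. Over the 22 tested members named by the rule and Bnc1, 290 other values kept their direction and side of the threshold, 27 fell below it and 7 passed it.

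Deviations of same-numbered libraries from their group means had correlations of 0.278, -0.0344 and 0.124, and those of other pairs ran from -0.254 to 0.161. The paper states that littermates were compared, and the labels do not name litters. Whether the numbers pair the samples cannot be told from so few pairs. With the replicate block 3733 genes were called (2781 higher, 952 lower), 12 partner genes and 15 members, 14 of them higher, with Foxo1 lost (limma adjusted p = 0.051) and Foxp2 and Klf7 added.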
